A study of Caenorhabditis elegans with 2 samples.

Results

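The Hox genes of Caenorhabditis elegans were examined for binding sites of the eGFP-tagged zinc finger factor CES-1, mapped in embryos by ChIP-seq, the sequencing of DNA recovered with an immunoprecipitated protein. The 6 genes, of 19973 protein-coding genes in the nuclear genome, were chosen by name: lin-39, ceh-13, mab-5, egl-5, php-3 and nob-1. For each gene, every peak summit in the gene or within 20 kb of it was collected. These windows held 7 of the 6273 nuclear summits in the list that the authors thresholded by irreproducible discovery rate (IDR), a comparison of peak ranks between replicates. They held 31 of the 29982 nuclear summits in the authors' relaxed list of peaks and background. Of the 6273 thresholded summits, 94.5% had a match in both replicate lists, so not every one was found in both.

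Hox genes encode homeodomain transcription factors that give cells their identity along the body axis, and they sit in clusters in most animals. In the worm they lie as 3 pairs spread over chromosome III, with unrelated genes between the pairs. In this animal ceh-13, the relative of fly labial, acts in the anterior, lin-39 in the mid-body, mab-5 behind it, and egl-5, php-3 and nob-1, relatives of fly Abdominal-B, in the tail. CES-1 belongs to the Snail family, whose members bind E-boxes and are best known as repressors.

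The data came from 1 group of 2 biological replicates. Per the labels, these were mixed-stage embryos of strain OP174, of pooled sexes, with the genotype unc-119(ed3) and the integrated transgene wgIs174, which carries ces-1 fused to TY1, EGFP and FLAG together with unc-119. The labels give no group without the transgene, and all material carried it, so nothing below is a difference between conditions. Whole embryos were used, and a weak peak in such material may stand for binding in few cells or for weak binding in many, which cannot be told apart. The identity of the tagged factor rests on the labels. Signal below is the peak caller's value as the authors deposited it, on a scale that is not stated, and sequencing depth is unknown. The thresholded list ran from 58.7 to 3177 around a median of 119.3, and positions are on ce11, counted from 1.

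No Hox gene had a thresholded summit inside it. Of the 6 genes, 0 held one in the gene body, where 7.19% of all protein-coding genes did. The promoter window reached 1000 bp before and 200 bp past any annotated 5′ end, and 1 of 6 had a summit there, namely egl-5, against 16.2% of all protein-coding genes. All 6 genes had a thresholded summit in the body or within 20 kb, as did 75.4% of all protein-coding genes. The count for the Hox promoters therefore stood close to that of the genome, and 6 genes are too few to say more. In the relaxed list, 2 of 6 had a summit in the body (ceh-13 and mab-5), against 27.7% of all protein-coding genes. Likewise 3 of 6 had a relaxed summit in the promoter window (ceh-13, egl-5 and nob-1), against 34.0% of all protein-coding genes.

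Counted gene by gene, ceh-13 had 4 thresholded summits in its window and each of the other 5 genes had 1. The windows of lin-39 and ceh-13 share a summit, and those of php-3 and nob-1 share another, so the 7 summits were counted 9 times. The median protein-coding gene had 2, and 43.2% of genes had at most 1, while 28.6% had at least 4. Per 10 kb of window, the density was 0.208 at lin-39, 0.944 at ceh-13, 0.215 at mab-5, 0.234 at egl-5, 0.231 at php-3 and 0.215 at nob-1. Chromosome III as a whole had 0.695 per 10 kb and the nuclear genome 0.626.

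**Figure D1:**
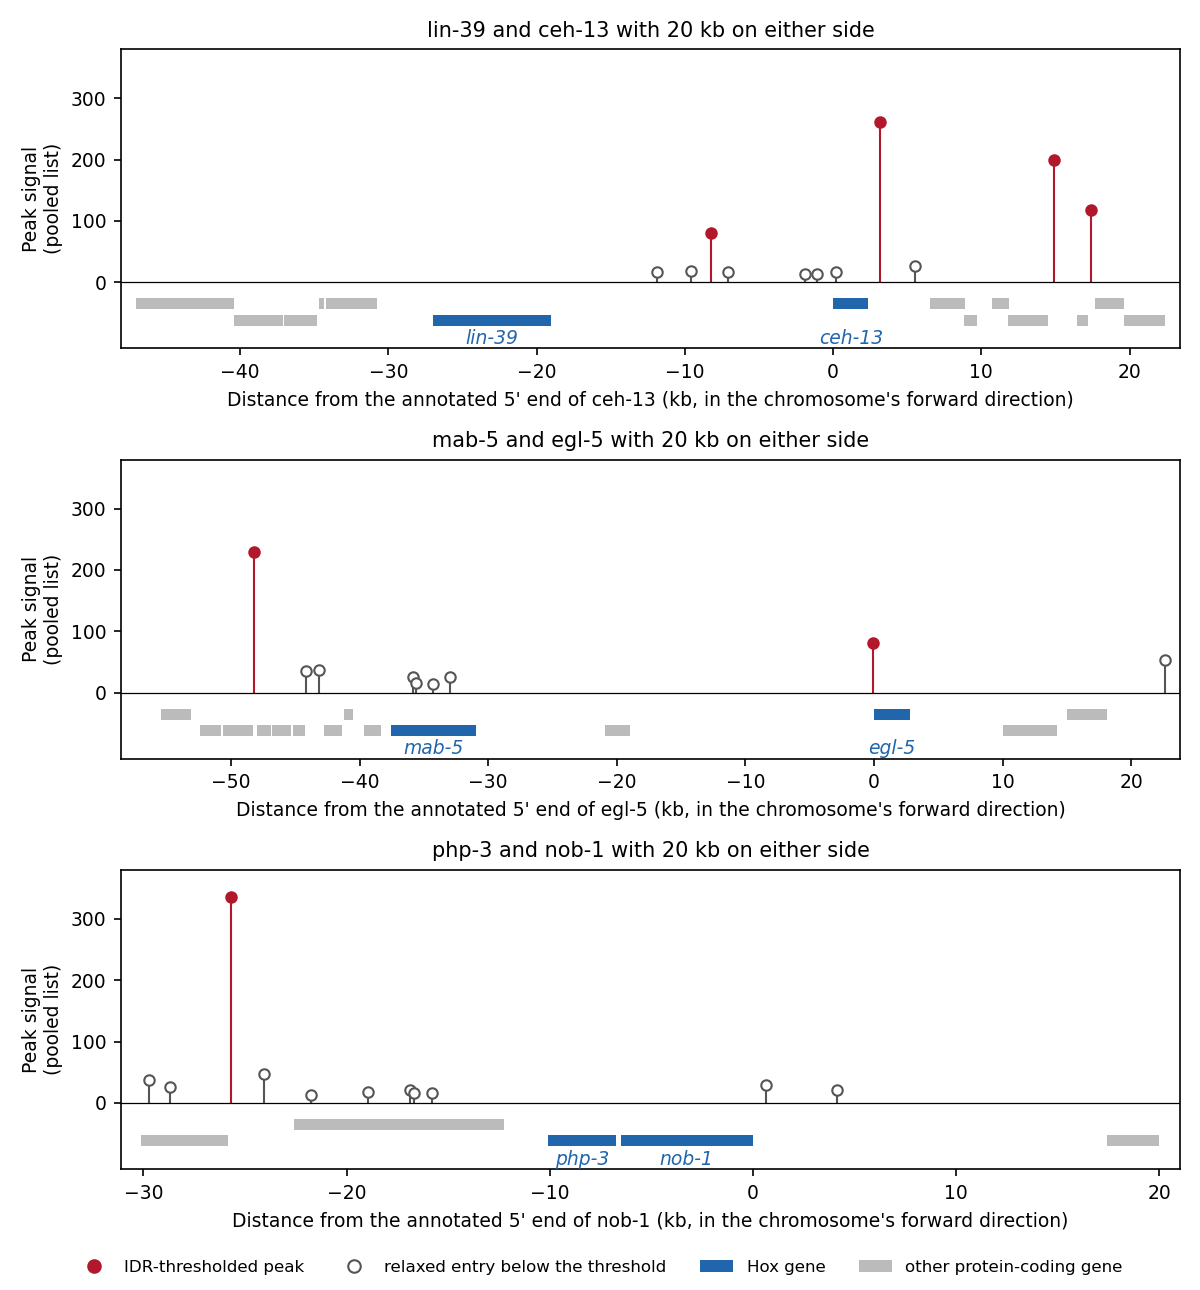
Peaks of the pooled list around the 3 pairs of Hox genes. The horizontal axis is the distance in kb from the 5′ end of ceh-13, egl-5 or nob-1, and the vertical axis is the peak signal. Boxes under the line are protein-coding genes, with the plus strand above the minus strand. All 7 thresholded peaks lie outside the Hox genes, and the peak at the 5′ end of egl-5 (80.1) and that just past ceh-13 (260.9) are the nearest.

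**Figure D2:**
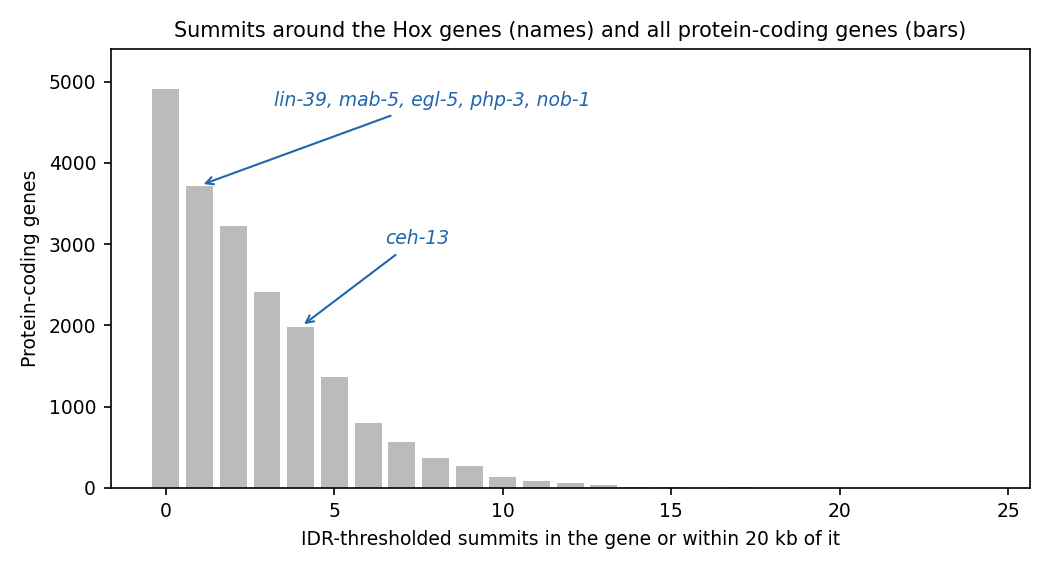
Number of protein-coding genes (bars) by the number of thresholded summits in the gene or within 20 kb of it, with the Hox genes named at their counts. Most of the 6 Hox genes have 1 summit and ceh-13 has 4, where the median gene has 2.

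The anterior pair had the strongest site that lay next to a Hox gene. The gene lin-39, known for its part in vulval and mid-body neuronal fates, lies on the minus strand (III, 7528641 to 7536632). The gene ceh-13, needed for anterior embryonic patterning, lies on the plus strand (III, 7555660 to 7558041), so that both are read away from the 19.0 kb space between them. The peak past ceh-13 (III, 7558652 to 7558877, summit 7558801) had a pooled signal of 260.9 and rank 943. Its signal was 116.9 in replicate 1 and 148.2 in replicate 2, with ranks of 1089 and 850. The summit was intergenic, 760 bp past the 3′ end of ceh-13 and 3141 bp downstream of its 5′ end, and ceh-13 had the nearest 5′ end of any annotated gene. Its pooled signal was 2.19 times the median of the thresholded list, and 14.9% of thresholded nuclear peaks were as strong.

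The other thresholded peak of that pair lay in the space between the 2 genes (III, 7547224 to 7547613, summit 7547419). Its pooled signal was 79.9, at rank 4819, with 54.2 in replicate 1 and 27.1 in replicate 2. The summit lay 10787 bp upstream of lin-39 and 8241 bp upstream of ceh-13, while the nearest 5′ end was that of the microRNA gene cel-mir-231, 2264 bp away. Replicate 2 placed it at rank 7494, outside a list of the length of the thresholded one. The log2 ratio of replicate 2 to replicate 1 was −1.0, against a median of 0.17 and an SD of 0.67 among the 1159 shared peaks of like signal (76.2 to 101.8). The windows below are 201 bp of the forward strand of ce11 around each summit, shown because these are the peaks closest to the anterior pair. Capitals mark E-boxes of the form CANNTG and matches to TGATNNAT, the letters of a Hox site with its partner Pbx, called Extradenticle in flies, on either strand.
between lin-39 and ceh-13, chrIII:7547319-7547519: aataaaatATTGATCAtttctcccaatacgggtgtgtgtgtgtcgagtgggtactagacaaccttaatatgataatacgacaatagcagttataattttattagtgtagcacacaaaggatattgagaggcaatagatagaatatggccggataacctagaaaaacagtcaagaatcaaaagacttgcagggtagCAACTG
past ceh-13, chrIII:7558701-7558901: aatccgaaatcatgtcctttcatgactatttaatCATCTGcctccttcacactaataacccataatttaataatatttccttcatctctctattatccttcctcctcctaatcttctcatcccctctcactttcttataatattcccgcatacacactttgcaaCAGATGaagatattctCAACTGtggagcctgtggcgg

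Neither window held CAGGTG, the E-box typical of Snail proteins. In the window between the genes the capitals lay 85 to 92 bp before the summit and 95 to 100 bp after it. In the window past ceh-13 the nearest E-box began 64 bp after the summit or ended 61 bp before it.

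Farther from ceh-13, a pair of thresholded peaks lay at the 5′ ends of other genes. The peak 431 bp upstream of R13A5.7 (III, 7570369 to 7570758) lay 12523 bp outside ceh-13 and had a pooled signal of 200, with 100.6 in replicate 1 and 106.9 in replicate 2. The peak 224 bp upstream of rpl-9, a ribosomal protein gene (III, 7572860 to 7573249), lay 15014 bp outside ceh-13. Its pooled signal was 118.1, with 45.7 in replicate 1 and 70.6 in replicate 2. The start of the non-coding gene R13A5.16 lay nearer to that summit, 66 bp away.

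Below the threshold, the lin-39 and ceh-13 space held 5 further relaxed entries. Their signals ran from 13.7 to 17.9, under the median of 24.3 of the relaxed list, and each was present in 1 replicate alone. Inside ceh-13 there was 1 entry, in a coding exon 189 bp downstream of the 5′ end, with a signal of 16.6 and a match in replicate 1 only. Inside lin-39 there was none. All 6 signals, that in the exon included, lay below the relaxed median.

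At the mab-5 and egl-5 pair the only thresholded site at a Hox promoter was found. The gene egl-5, which acts in the fates of tail cells, lies on the plus strand (III, 7814374 to 7817141). The peak at its 5′ end (III, 7814099 to 7814488, summit 7814294) had a pooled signal of 80.1 and rank 4811. The summit was intergenic, 80 bp upstream of the first of 2 annotated 5′ ends. Its signal was 40.5 in replicate 1, at rank 4720, and the list of replicate 2 had no entry there. The nearest entry of replicate 2 lay 22633 bp away, in a list whose lowest signal was 6.84. Among the thresholded peaks of like signal (76.2 to 101.8), 92.4% were found in both replicates, so that a peak seen in 1 replicate only was the less common case. The site is printed because it is the only Hox promoter peak, with capitals as above.
egl-5 5′ end, chrIII:7814194-7814394: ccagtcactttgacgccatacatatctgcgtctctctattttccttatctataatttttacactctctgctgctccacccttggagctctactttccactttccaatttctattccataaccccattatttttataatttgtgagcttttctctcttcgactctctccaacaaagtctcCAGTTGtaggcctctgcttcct

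The egl-5 window had an E-box 79 to 84 bp after the summit, and none nearer. Its pooled signal was 0.673 times the median of the thresholded list, and 76.4% of thresholded nuclear peaks were as strong. Among the 6290 strongest peaks of replicate 2, or with thresholded peaks found in both replicates only, 0 of the 6 Hox genes had a promoter summit.

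The gene mab-5, which directs posterior neuroblast migration, lies on the minus strand (III, 7776835 to 7783454). Its window held 1 thresholded peak, 10642 bp past its 3′ end (III, 7766096 to 7766293), with a pooled signal of 229.3 and with 109.3 in replicate 1 and 119.4 in replicate 2. That summit lay 141 bp upstream of ZK686.2, and so at the start of another gene. Within mab-5 the relaxed list had 4 entries, all intronic, with signals of 25, 16.1, 13.5 and 25.2. Of these, 3 matched replicate 1 only and 1 matched neither replicate.

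The strongest relaxed entry below the threshold in any Hox window lay at the far edge of that of egl-5. It had a signal of 53.2, a rank of 6807 and a −log10 q of 2.10, with 22.9 in replicate 1 and 28.2 in replicate 2. It lay 2626 bp upstream of ceh-23, another homeobox gene.

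The php-3 and nob-1 pair had no thresholded peak nearby. Both genes, which act together in posterior embryonic patterning, lie on the minus strand, php-3 from 12074218 to 12077556 and nob-1 from 12077793 to 12084316. Their windows shared 1 thresholded peak (III, 12058500 to 12058759, summit 12058640), 15578 bp past the 3′ end of php-3 and 19153 bp past that of nob-1. Its pooled signal of 335.7, at rank 560, was the highest of the 7, with 169.2 in replicate 1 and 165.0 in replicate 2. The summit lay 182 bp upstream of arx-3, which encodes a subunit of the actin-nucleating Arp2/3 complex. It is printed because it was the only one of the 7 with a TGATNNAT match within 50 bp.
arx-3 5′ end, chrIII:12058540-12058740: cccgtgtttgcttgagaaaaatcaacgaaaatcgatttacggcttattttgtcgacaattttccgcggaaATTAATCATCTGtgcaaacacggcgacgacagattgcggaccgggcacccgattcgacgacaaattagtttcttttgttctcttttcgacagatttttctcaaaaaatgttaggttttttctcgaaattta

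In that window TGATNNAT, read on the reverse strand, covered the bases from 30 to 23 bp before the summit and overlapped an E-box from 24 to 19 bp before it. The relaxed list had no entry inside php-3 or nob-1. The entry nearest to their 5′ ends lay 637 bp upstream of nob-1, with a signal of 28.5, with 10.8 in replicate 1 and 16.8 in replicate 2. Another lay 4111 bp upstream, with a signal of 21.7, and both were below the threshold.

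The 7 peaks were then ordered by level and set against the spread between replicates. The mean log2 signal of the 2 replicates was 7.38 at the arx-3 peak, 7.04 past ceh-13, 6.84 at ZK686.2, 6.70 at R13A5.7, 5.83 at rpl-9 and 5.26 between lin-39 and ceh-13. The egl-5 peak had no value in replicate 2 and was left out of this order. Of the 15 pairs among the 6 peaks, 10 differed by over 2 SD of such a difference, the SD being taken from the replicate ratios of peaks of like strength. Among the 5 pairs of neighbours in the order, only R13A5.7 and rpl-9 did, with a difference of 0.87 against an SD of 0.35. The peak past ceh-13 differed from that between lin-39 and ceh-13 by 1.78, against an SD of 0.37. Apart from the site between lin-39 and ceh-13, the log2 ratios of replicate 2 to replicate 1 ran from −0.04 to 0.63, against a median of 0.15 and an SD of 0.57 over 5928 shared peaks.

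**Figure D3:**
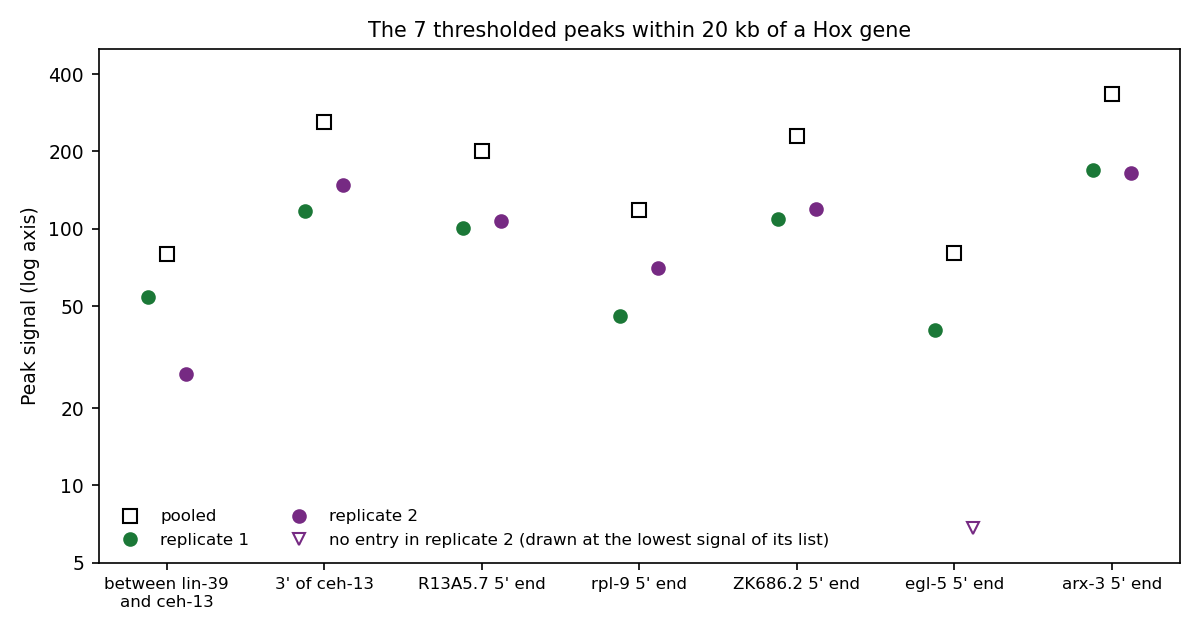
Signal of the 7 thresholded peaks within 20 kb of a Hox gene, in position order, in the pooled list (squares) and in each replicate (dots), on a log axis. The triangle marks the egl-5 peak, which has no entry in replicate 2, and is drawn at the lowest signal of that list, 6.84. Both replicates put the peaks past ceh-13, at R13A5.7, at ZK686.2 and at arx-3 above 100.

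The spaces between the paired genes held few summits, as did many spaces of their length. Between lin-39 and ceh-13, 19.0 kb with no other protein-coding gene, there were 1 thresholded and 6 relaxed summits in all. Over 189 spaces of 15 to 25 kb between neighbouring protein-coding genes, the medians were 1 thresholded and 7 relaxed summits, and 46.6% had no thresholded summit. Between mab-5 and egl-5, 30.9 kb with the cytokinesis gene cyk-7 inside, the egl-5 promoter peak was the only summit in either list. The part from cyk-7 to egl-5 spanned 19.0 kb and held that summit alone, and 18.5% of spaces of 15 to 25 kb held at most 1 relaxed summit. The part from mab-5 to cyk-7 spanned 9.99 kb and held 0 summits, as did 24.8% of 307 spaces of 9 to 11 kb. Between php-3 and nob-1 there are 236 bp, with 0 summits.

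Long runs without any relaxed entry crossed all 3 pairs. A run of 43.9 kb covered the whole of lin-39 and ended at 7543767, in the space upstream of it. Another of 32.9 kb reached from an intron of mab-5 to the egl-5 promoter peak, and the next, of 22.7 kb, covered the whole of egl-5. A run of 16.4 kb covered both php-3 and nob-1. Of the nuclear genome, 18.8% lay in runs of at least 43.9 kb, 25.9% in runs of at least 32.9 kb and 44.3% in runs of at least 16.4 kb. Such runs thus took up a sizeable part of the genome but were few among all runs, whose median length was 1232 bp. Of all runs, 0.89% were as long as the first and 4.22% as long as the last. The part of such runs in the counts at Hox genes was not tested.

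Between ceh-13 and mab-5 the density of thresholded summits was above that of 5 of the 6 Hox windows, although the stretch includes 4 of the 7 peaks described above. The stretch from ceh-13 to mab-5, 218793 bp, held 20 thresholded summits, or 0.914 per 10 kb, and 10 of its 38 protein-coding genes had a promoter summit. From lin-39 to egl-5, with the Hox genes included, 288501 bp held 22 thresholded summits, or 0.763 per 10 kb. The median signal of these 22 was 93.5 and the highest 560.4.

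Other homeobox genes gave a closer comparison. Of 93 such genes, 75 had a thresholded summit within 20 kb, 20 had one in the gene body and 16 in the promoter window, or 80.6%, 21.5% and 17.2%. The signal of all thresholded peaks in a window summed to 79.9 at lin-39, 659.0 at ceh-13, 229.3 at mab-5, 80.1 at egl-5 and 335.7 at both php-3 and nob-1. The 93 other genes had a median of 316.9, with quartiles of 127.3 and 699.7. Among them, 18 had no thresholded peak and so a sum of 0. With these counted, 19 were lower than lin-39 and also lower than egl-5, and of the 19 only ceh-14 (65.7) had a peak. Further, 31 were lower than mab-5, 49 lower than php-3 and nob-1 and 67 lower than ceh-13. With flanks of 20 kb, lin-39 and egl-5 thus lay near the bottom of the homeobox genes that had a peak. The highest Hox gene, ceh-13, lay under the upper quartile, and no Hox gene was at 0. With flanks of 10 kb, only 2 Hox genes had a thresholded summit. The sums also count peaks at the 5′ ends of other genes. The whole sum was the arx-3 peak for php-3 and nob-1, and the ZK686.2 peak for mab-5. That of ceh-13 included the peaks at R13A5.7 (200) and rpl-9 (118.1), while that of egl-5 was its own promoter peak. The sums therefore describe the windows rather than the Hox genes alone. The most alike in log2(1 + summed signal) were ceh-51, ceh-14 and ceh-92 for lin-39 and egl-5, and ceh-74, ceh-62 and ceh-88 for ceh-13. They were ceh-19, ceh-93 and unc-39 for mab-5, and ceh-60, vab-3 and ceh-99 for php-3 and nob-1, all from the pooled list of 2 replicates. The strongest promoter peaks among the 93 were at unc-42 (3177), ceh-58 (621), ceh-38 (349.7) and ceh-24 (303.9), against 80.1 at egl-5.

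**Figure D4:**
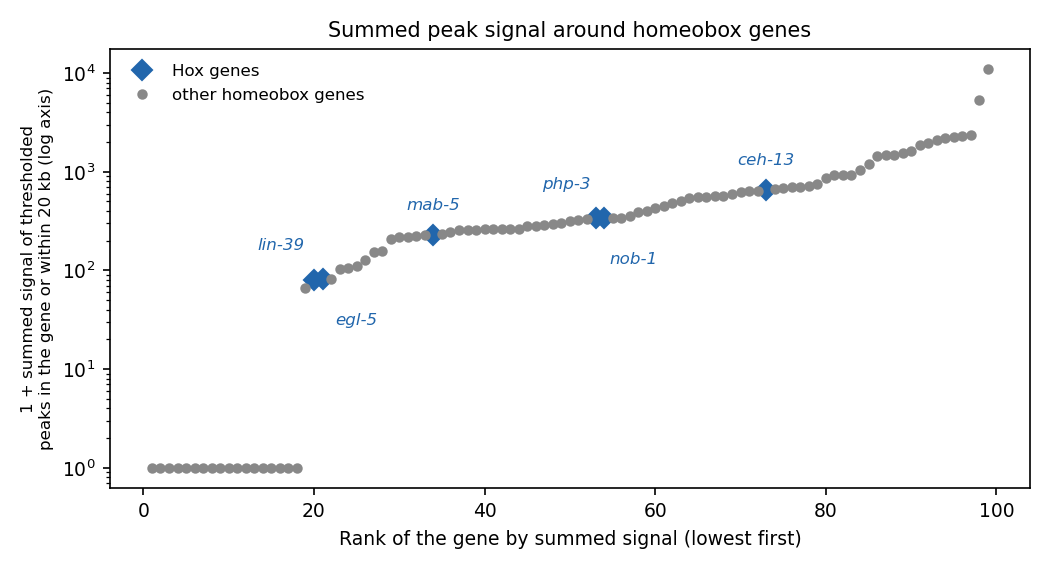
Summed signal of thresholded peaks in the gene or within 20 kb, plus 1, on a log axis, for the 6 Hox genes (diamonds) and the 93 other homeobox genes (dots), by rank. The Hox genes lie between 79.9 and 659.0, and 18 other homeobox genes have no thresholded peak and sit at 1.

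Genes that act with, on or downstream of the Hox genes were counted in the same way, for thresholded summits in the promoter window. Among these lists, chromatin regulators of Hox genes had the largest share, 11 of 12, where 16.2% of all protein-coding genes had a promoter summit. Peaks at some of its members were known when the list was drawn up, so the share is a description only. The signals ran from 77.3 to 516.7 around a median of 164.9, all 11 peaks were found in both replicates, and each summit had that gene's 5′ end as its nearest. The strongest lay 430 bp upstream of egl-27, which encodes a relative of the MTA proteins of the NuRD complex. Its signal was 516.7, with 227.1 in replicate 1 and 290.3 in replicate 2. The Polycomb repressor gene mes-6, a relative of extra sex combs, had a peak 27 bp upstream with a signal of 456.1, with 227.7 in replicate 1 and 233.6 in replicate 2. The peak at sor-1 had 452.1, with 203.6 in replicate 1 and 257.3 in replicate 2, and that at sop-2 had 427.1, with 211.5 in replicate 1 and 213.3 in replicate 2. Both genes are known from worms in which Hox genes are expressed in the wrong places. The member without a promoter summit was mes-3, named here after its value was seen, which acts in a complex with mes-2 and mes-6 and had 2 thresholded summits within 20 kb.

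The other lists stood near or under the share of the genome. Of 5 cofactor genes, 1 had a promoter summit, unc-62, a Meis homeodomain gene, with a signal of 100.3, with 54.3 in replicate 1 and 56.5 in replicate 2. Of 25 upstream regulators, 2 did: the Frizzled receptor gene lin-17, with 354.9, and the beta-catenin gene sys-1, with 81.2. Of 16 target genes, 1 did, the growth factor gene egl-17, with 146.8. The lists are short, they share members (4 genes stand among both upstream regulators and targets, and 4 of the 5 cofactors among the other homeobox genes), and no test was made between them.

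**Figure D5:**
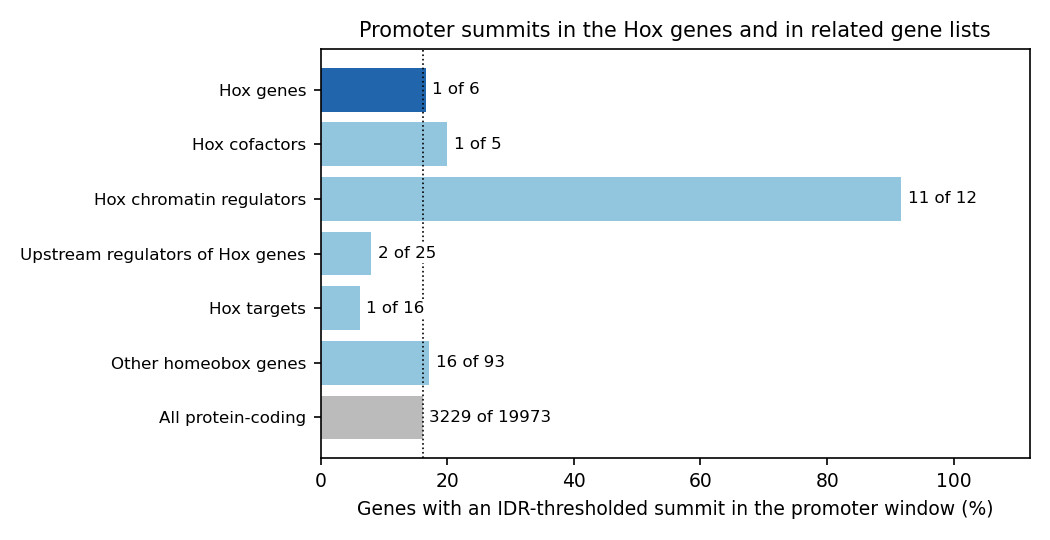
Share of genes with a thresholded summit in the promoter window for the Hox genes, 5 related lists and all protein-coding genes, with counts beside the bars. The dotted line is the share of all protein-coding genes, 16.2%. The Hox genes (1 of 6) lie beside the line and the chromatin regulators (11 of 12) lie far above it. Peaks at some of those regulators were known when their list was drawn up, so their share is a description only.

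The letters around the summits were searched on both strands within 50 bp. CAGGTG, the Snail form of the E-box, was present on either strand at 0 of the 7 Hox summits and at 1.80% of all thresholded nuclear summits. CANNTG, which includes it, was present at 3 of 7, those at R13A5.7, rpl-9 and arx-3, and at 34.9% of all. TGATNNAT was present at 1 of 7, at arx-3, and at 4.85% of all. None of the 3 summits nearest to a Hox gene, those at egl-5, past ceh-13 and between lin-39 and ceh-13, had any of these within 50 bp. Their GC content over 101 bp was 35.6%, 33.7% and 33.7%, against a median of 41.6% and a lower quartile of 35.6% over all summits. That at ZK686.2 was close to these, at 36.6%. Those at rpl-9 (43.6%), arx-3 (47.5%) and R13A5.7 (49.5%) lay above the median. A match, or its absence, describes these letters only.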

How the data were processed

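Peak lists from 2 biological replicates were used as deposited. From the alignments, per notes that the authors deposited, they called a relaxed list of 30000 peaks on ce11 for each replicate and for the pooled replicates against a control. They kept 6290 pooled peaks after the IDR step. Which aligner and caller were used is not given in the sources used here. Peak signal was taken as the authors deposited it. The deposited −log10 q served to select relaxed entries of at least 2 for an alternative list, and is otherwise only quoted. No control list was analysed here.

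A summit is the start of the peak plus the deposited offset. Summits were placed on the WBcel235 annotation of Ensembl release 115, and sequence was read from the RefSeq WBcel235 assembly, both on ce11 coordinates. Of the thresholded peaks, 6273 on 6 nuclear chromosomes were used. Summits in different lists were matched within 100 bp. Computations in Python 3.11.15 with pandas 2.3.3 and numpy 2.4.6 were tested on simulated data. With 1 group there was no test between groups. Genes were named by rule: the members, genes nearest to their summits, up to 4 genes with the strongest promoter peaks per list, and the 3 homeobox genes most alike per member. The members, lists and rule were chosen with earlier results of these data known.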

Additional observations from a re-analysis of the deposited data

How the results depend on the processing

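In the ce10 list, 6 of the 7 summits had a peak of the same width, offset and signal (within 0.1%). Of 59 recomputed values, 40 moved by no more than the limits set for them. For counts the limit was a fixed ratio, and for ranks it was the spread between the 2 replicate ranks themselves. A rank on which the replicates disagreed thus had a wider limit. By it, the ranks near lin-39 counted as unmoved and the closer ranks near mab-5 as moved. The figure of 40 is therefore no measure of how stable the ranks were. With pooled relaxed peaks of a −log10 q of at least 2, there were 8 summits, the further one being that upstream of ceh-23. With the 3000 strongest pooled peaks, 4 summits were left near Hox genes, and 0 Hox genes had a promoter summit. Under that setting there were 0 summits between lin-39 and ceh-13 and 0 between mab-5 and egl-5. With thresholded peaks found in both replicates only, the egl-5 site was lost, leaving 0 promoters and 0 summits between mab-5 and egl-5. Flanks of 10 and 5 kb left 3 and 2 summits, each near 2 of the 6 genes. To leave out a replicate, the 6290 strongest relaxed peaks of the other were taken. This gave 5 to 7 summits and 0 to 1 occupied promoters. It also gave 0 to 1 summits in each of the lin-39 and ceh-13 and the mab-5 and egl-5 spaces. With replicate 2 alone the sites lost were those at egl-5 and between lin-39 and ceh-13. The latter had an entry in replicate 2, at rank 7494, that fell below this cut, while egl-5 had no entry there. The count in Hox gene bodies and that between php-3 and nob-1 were 0 under every alternative run. Windows of 100 bp gave 7 summits with CANNTG and 2 with TGATNNAT, and windows of 25 bp gave 0 with TGATNNAT. A wider window can only add matches, and the shares over all summits were not computed for these windows. By replicate, the largest shift in rank was near lin-39, where the strongest peak ranked 3424 to 7494 (pooled 4819). The strongest peak ranked 850 to 1089 near ceh-13 (pooled 943), 510 to 670 near php-3 and nob-1 (pooled 560) and 1249 to 1288 near mab-5 (pooled 1219). That near egl-5 ranked 4720 in replicate 1 (pooled 4811), with no rank in replicate 2. The causes of these shifts were not tested. Depth is unknown, so weak sites near Hox genes may go undetected in these lists.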

Other observations

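After the printed sequences had been seen, the share of pyrimidines on the richer strand was computed over 101 bp around each summit. It was 74.3% past ceh-13 and 71.3% at egl-5, against a median of 57.4% and an upper quartile of 63.4% over all 6273 summits. Of all thresholded nuclear summits, 4.02% had a share at least as high as the summit past ceh-13, and 7.60% as high as that at egl-5. The site between lin-39 and ceh-13 had 60.4% and that at R13A5.7 had 67.3%. Those at rpl-9 (56.4%), ZK686.2 (50.5%) and arx-3 (51.5%) lay below the median. This measure was chosen because the letters looked rich in C and T, and it was not tested.

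The deposited −log10 q ran against the signal among the 7 peaks. It was 2.09 at the strongest, near arx-3, and 2.75 at the 2 weakest, at egl-5 and between lin-39 and ceh-13. Among the relaxed entries below the threshold in the Hox windows it rose with signal, from 0.16 at 13.4 to 2.1 at 53.2.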
